A study of Homo sapiens with 6 samples.

Results

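The genes described here are 9 enzymes and binding proteins that write, read or remove methyl groups on DNA, measured in MDA-MB-231 cells, an established human breast adenocarcinoma line. They were chosen by gene symbol and role, namely the DNA methyltransferases DNMT1, DNMT3A and DNMT3B, the maintenance cofactor UHRF1, the dioxygenases TET1, TET2 and TET3, the glycosylase TDG and the methyl-CpG binding protein MBD2. The choice was made with earlier results of these data known. All 9 genes were found among the 17100 transcripts of the count table. RNA was sequenced from 3 libraries of cells given vehicle and from 3 libraries of cells exposed to 1 µM guadecitabine (SGI-110) for 96 h and then kept for 24 h without the drug. The cells carried no engineered allele, both groups were the same cell line, and the study's methods describe the replicates as independent experiments. The comparison asks how the RNA of the methylation machinery stood after exposure to an inhibitor of that machinery.

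Methyl groups on cytosines of CpG sites are copied onto the new DNA strand after replication by DNMT1, which UHRF1 brings to hemimethylated sites, whereas DNMT3A and DNMT3B can methylate sites that carried no mark. TET enzymes oxidise 5-methylcytosine, TDG cuts out its later oxidation products for base excision repair, and proteins such as MBD2 bind methylated CpGs and recruit the NuRD corepressor. Guadecitabine is a dinucleotide prodrug of decitabine, a cytidine analogue that is built into replicating DNA and traps DNA methyltransferase protein there. RNA counts do not measure that protein, its activity or DNA methylation.

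The maintenance pair lies on chromosome 19 in hg19, with DNMT1 (NM_001130823) at chr19:10244022-10305755 on the minus strand and UHRF1 (NM_001290050) at chr19:4903092-4962165 on the plus strand. DNMT3A (NM_175629) was counted at chr2:25455830-25565459 on the minus strand and DNMT3B (NM_175849) at chr20:31350191-31397162 on the plus strand. The TET genes, all on the plus strand, were TET1 (NM_030625) at chr10:70320117-70454239, TET2 (NM_001127208) at chr4:106067842-106200960 and TET3 (NM_001287491) at chr2:74213531-74335302. TDG (NM_003211) was counted at chr12:104359593-104382656 on the plus strand and MBD2 (NM_003927) at chr18:51677971-51751158 on the minus strand. Counts covered the exons of 1 RefSeq transcript per gene, so other isoforms, such as the short DNMT3A2 form, were not separated.

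Because maintenance genes are textbook targets of the S phase factor E2F, the promoters were read for the E2F-type words TTTGGCGC, TTTCCCGC, TTTCGCGC and TTTGCCGC on both strands. The windows ran from 250 bases before to 50 bases after each RefSeq start on GRCh38.p14, 20 windows over the 9 genes. Of all 35116 windows of that length, 3.31% held at least 1 of the words, and among the 9 genes only DNMT1 and UHRF1 did. The 30 bases around each match are shown 5′ to 3′ on the gene's strand with the word in capitals, at chr19:10194937-10194966 (minus strand) for DNMT1 and at chr19:4909973-4910002 and chr19:4909476-4909505 (plus strand) for UHRF1. In the DNMT1 stretch and the second UHRF1 stretch the word is on the opposite strand, so its reverse complement is capitalised.
DNMT1: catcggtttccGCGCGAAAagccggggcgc
UHRF1, first: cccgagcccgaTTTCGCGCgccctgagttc
UHRF1, second: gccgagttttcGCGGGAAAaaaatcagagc
Counted from the start site of their own window, the first capital lies at base -2, -160 and -14. A match describes these letters and is not evidence that a factor binds there. The number of CpG sites in these promoter windows ranged from 3 for DNMT3B to 46 in 1 window each of DNMT3A and UHRF1, and the median over all windows was 14.

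The vehicle libraries totalled between 17602570 and 22277442 counts each, and the guadecitabine libraries between 8792127 and 21410849, the lowest being guadecitabine 2. Vehicle 3 stood apart in that it listed only 20 transcripts at 0, where vehicle 1 and vehicle 2 listed 2498 and 2517. A set of 533 genes had at most 1 count in each of those libraries but were counted with guadecitabine. Over that set vehicle 3 carried a median of 7.10 counts per kb of exon, referred to below as its background. Background values of single genes are this median multiplied by exon length. They are rough estimates and were not measured on the gene itself. VIM, CD44, EGFR and AXL, markers of this line, were counted in every library, and ESR1 and PGR, known to be absent from it, had at most 1 count outside vehicle 3, which had 67 and 43. GATA3, listed as absent or low in this line, had 321 to 766 counts in every library. CDH1, listed likewise, had 25 to 87 counts with vehicle and 6 to 20 with guadecitabine. Of 7 listed markers of other cell types, CD3E was not in the count table. Over the 6 present the summed counts were 583 to 1216 with vehicle and 1360 to 2669 with guadecitabine. Most of the latter came from COL1A1, which had 132 to 380 and 1143 to 2175. Of the other 5, the monocyte gene CD14 (91 to 257 counts) and the endothelial gene PECAM1 (39 to 104) were counted in every library, the mural cell gene PDGFRB had 254 to 425 with vehicle and 85 to 181 with guadecitabine, and the leukocyte gene PTPRC and the endothelial gene CDH5 had at most 4 outside vehicle 3. The part of such cells in the results was not tested.

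Levels are given as reads per kb, that is counts normalised for depth and composition and divided by the exon length counted. This allows genes to be compared in level, without correction for GC content. Levels of UHRF1 and TDG are less certain, since 47.6% and 50.1% of their 50-base exon stretches occur once in the genome. With vehicle, DNMT1 stood highest at 1429 ± 45.8 reads per kb (SD, n = 3), above 90.6% of the 13322 genes tested. UHRF1 followed at 576 ± 87.3 reads per kb, above 78.3% of the genes. MBD2 at 184 ± 50.1 and TDG at 143 ± 18.5 reads per kb came next, and their libraries overlapped. DNMT3A at 44.5 ± 4.42 and DNMT3B at 35.3 ± 5.62 reads per kb lay lower and touched each other in range, as did TET2 at 19.4 ± 4.11 and TET3 at 16.0 ± 1.95. TET1 came last at 3.20 ± 1.48 reads per kb, above 3.11% of the genes. Steps between the other neighbours exceeded the spread of the vehicle libraries. After guadecitabine the order changed at 2 places, with DNMT3B above DNMT3A and TET3 above TET2, in each case without overlap between the guadecitabine libraries, and only MBD2 and TDG still overlapped as neighbours.

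**Figure D1:**
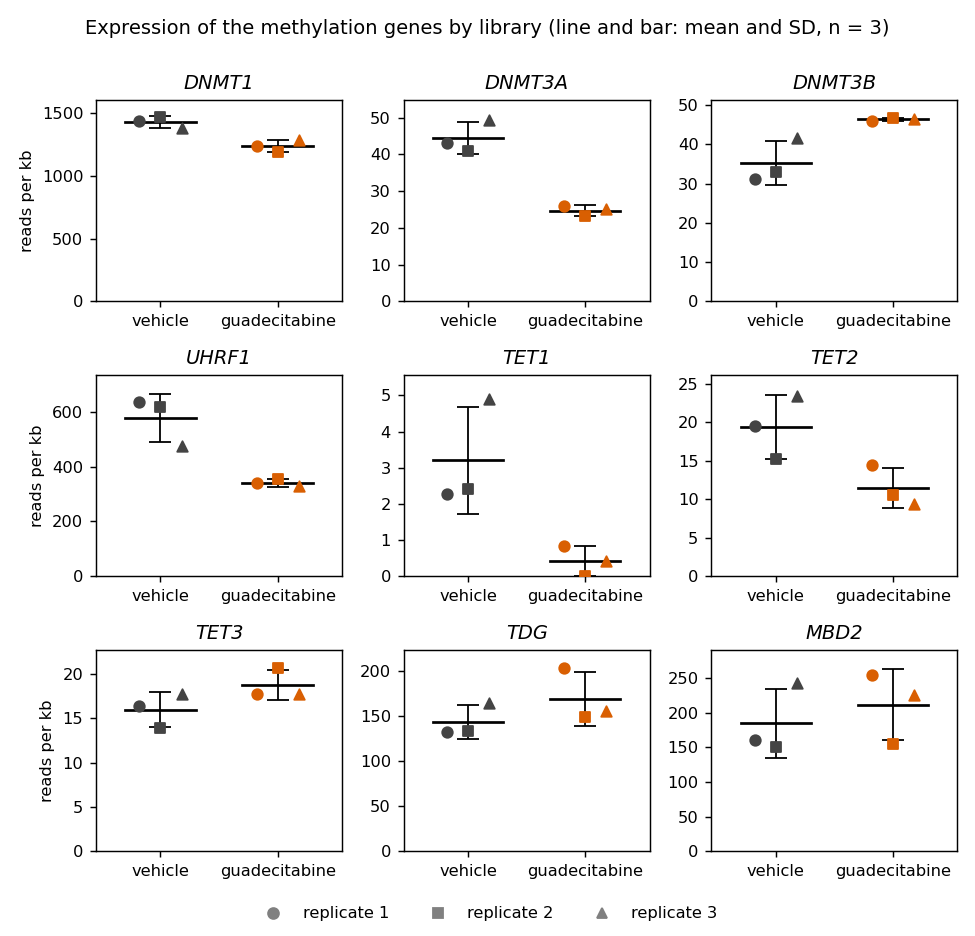
Reads per kb of exon of the 9 genes, 1 panel per gene with its own linear axis from 0, in each of the 3 vehicle (grey) and 3 guadecitabine (orange) libraries, with a line at the group mean, a bar for the SD and a symbol for the replicate number. DNMT1, DNMT3A, UHRF1, TET1 and TET2 lie lower in every guadecitabine library than in every vehicle library. DNMT3B and, narrowly, TET3 lie higher, while TDG and MBD2 overlap between groups.

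Of the 9 genes, DNMT3A, UHRF1, TET1 and TET2 fell after guadecitabine, 0 rose, and DNMT1, DNMT3B, TET3, TDG and MBD2 did not pass edgeR's quasi-likelihood test at an adjusted p of 0.05. Over all 13322 genes tested, 18.4% were called lower, 19.3% higher and 37.7% in either direction, against which the 4 lower and 0 higher of 9 are to be read. TET1 was over the filter's cutoff in 3 vehicle and 0 guadecitabine libraries, so its direction was fixed by the filter and it adds nothing to the count of 4. At a change of at least 2-fold TET1 alone was called, with the same limit, and 12.3% of all genes were. The median log2 fold change of the 9 genes was -0.21 and that of all genes tested 0.02. In normalised level, guadecitabine lay entirely below vehicle for 5 of the 9 genes and entirely above it for 2, where 25% and 26.6% of all genes tested did so. TET1 is among those 5 and, with its direction fixed by the filter, adds nothing to that count either. The lowest p an exact permutation test of 3 libraries against 3 allows is 0.1, so single genes are tested below with the fit across all genes. In bulk RNA, a change in the share of cells that express a gene and a change in RNA per cell cannot be told apart.

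**Figure D2:**
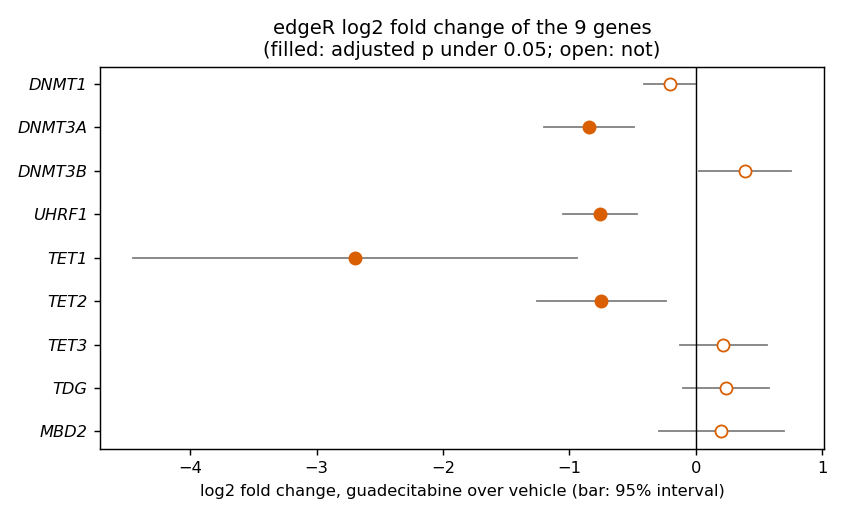
Log2 fold change of guadecitabine against vehicle for the 9 genes, with points for the estimate of edgeR, bars for its 95% interval and filled points for genes that passed an adjusted p of 0.05. UHRF1, DNMT3A, TET1 and TET2 are filled and lie below 0, and the interval of TET1, from -4.45 to -0.94, is the widest.

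DNMT1, the maintenance methyltransferase, was the most abundant of the 9 RNAs in both groups. Its vehicle libraries held 1440.1, 1468 and 1379 reads per kb, and its guadecitabine libraries 1239, 1194 and 1283. All 3 guadecitabine libraries lay below all 3 vehicle libraries, with a gap between the groups that was close to the spread within them. The log2 fold change was -0.21 (SE 0.0900), which missed the threshold at an Benjamini-Hochberg adjusted p of 0.102 in the quasi-likelihood test of edgeR. Its 95% interval ran from -0.41 to -0.0026, and offsets for GC content and exon length moved the value to -0.09. The Wald test of DESeq2 gave the same log2 fold change of -0.21 with an adjusted p of 0.0333, past the threshold.

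UHRF1, which recognises hemimethylated CpGs through its SRA domain and ubiquitinates histone H3 to recruit DNMT1, fell. Vehicle libraries 1 and 2 held 635 and 617 reads per kb and vehicle 3 held 475, whereas the guadecitabine libraries held 339, 356 and 328. Even the lowest vehicle library, vehicle 3, lay above every guadecitabine library, and the guadecitabine libraries were close together. The log2 fold change was -0.76 (SE 0.129, adjusted p = 0.00179, edgeR's quasi-likelihood test), which is 1.69-fold lower than vehicle. UHRF1 counts carry an uncertainty of assignment, since only 47.6% of its 50-base exon stretches occur once in the genome, most of the others being shared with a processed pseudogene at chr12:20704503-20707294 in hg19 that was not among the transcripts counted.

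Relative to DNMT1 in the same library, UHRF1 stood at 0.441, 0.420 and 0.345 with vehicle and at 0.273, 0.298 and 0.255 with guadecitabine, as ratios of reads per kb. The ratio was lower in every guadecitabine library than in every vehicle library (two-sided exact permutation p = 0.1, the smallest possible). It carries the uncertainty of assignment of the UHRF1 counts.

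DNMT3A and DNMT3B, the de novo methyltransferases, had fold changes of opposite sign, of which that of DNMT3A passed the test. DNMT3A held 43.1, 41.0 and 49.5 reads per kb with vehicle and 25.9, 23.1 and 25.0 with guadecitabine. The groups were far apart compared with the spread within either of them. DNMT3A fell by 0.85 on the log2 scale (SE 0.157, adjusted p = 0.00292, edgeR's quasi-likelihood test), or 1.80-fold.

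DNMT3B, the form most expressed in early embryonic cells, held 31.2, 33.0 and 41.7 reads per kb with vehicle and 46.1, 46.7 and 46.4 with guadecitabine. Every guadecitabine library lay above every vehicle library, and vehicle 3 was the vehicle library nearest to them. The log2 fold change was 0.39 (SE 0.162, 95% interval 0.03 to 0.75), which missed the threshold at an adjusted p of 0.0863 in edgeR's quasi-likelihood test. The background of vehicle 3 came to 13.1% of its DNMT3B count and 11.1% of its DNMT3A count. Without vehicle 3, DNMT3B was called at a log2 fold change of 0.53 (adjusted p = 0.0252, edgeR). That fit removes the highest vehicle library of DNMT3B, which raises the difference by construction. It also called 22.6% of all genes higher, so it lends the call no support.

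The ratio of DNMT3A to DNMT3B in reads per kb was 1.38, 1.24 and 1.19 in the vehicle libraries and 0.563, 0.495 and 0.539 in the guadecitabine libraries. DNMT3A thus exceeded DNMT3B in every vehicle library and lay below it in every guadecitabine library. With guadecitabine DNMT3A lay lower and DNMT3B higher without overlap, so the groups of the ratio had to separate. Its two-sided exact permutation p of 0.1, the smallest possible, therefore adds nothing to the levels of the genes. DNMT1 nonetheless made up most of the DNMT reads per kb in both groups, at 94.7% ± 0.782 with vehicle and 94.6% ± 0.139 with guadecitabine (SD, n = 3). DNMT3A went from 2.96% ± 0.367 to 1.88% ± 0.0815 of that pool and DNMT3B from 2.35% ± 0.427 to 3.55% ± 0.139. The summed level of the pool was 1509 ± 36.5 reads per kb with vehicle and 1310.1 ± 45.2 with guadecitabine.

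**Figure D3:**
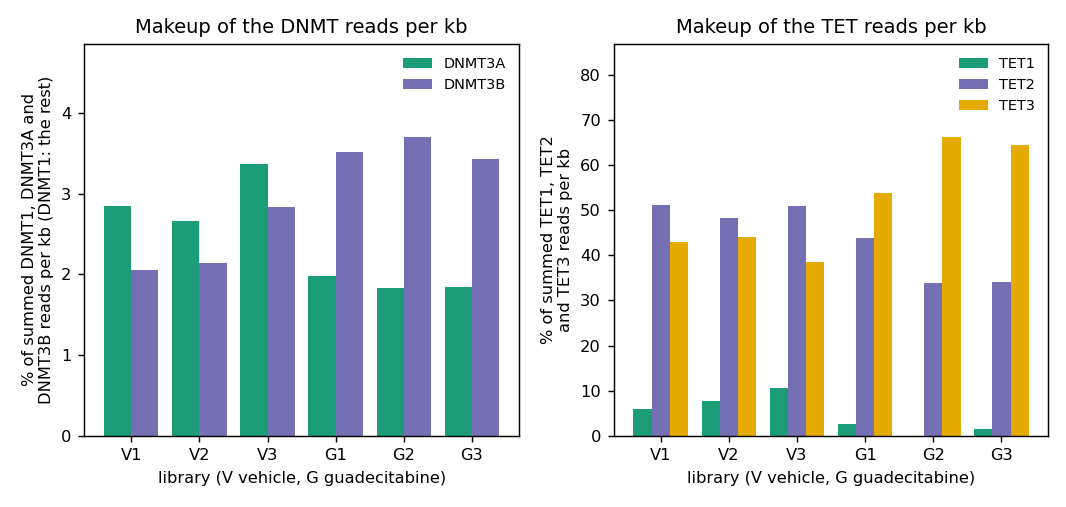
Share in percent that DNMT3A and DNMT3B held of the summed DNMT reads per kb (left, DNMT1 being the rest) and that TET1, TET2 and TET3 held of the summed TET reads per kb (right), with 1 group of bars per library from V1 to V3 (vehicle) and G1 to G3 (guadecitabine). The taller bar passes from DNMT3A to DNMT3B and from TET2 to TET3 between every vehicle and every guadecitabine library.

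The TET enzymes, which oxidise 5-methylcytosine, were all low and differed among themselves. TET2, the form without a CXXC domain of its own, held 19.5, 15.2 and 23.4 reads per kb with vehicle and 14.5, 10.6 and 9.38 with guadecitabine. The lowest vehicle library and the highest guadecitabine library nearly met. TET2 fell by 0.75 on the log2 scale (SE 0.226, adjusted p = 0.0283, edgeR's quasi-likelihood test), or 1.68-fold. That call was lost when vehicle 1, vehicle 3, guadecitabine 2 or guadecitabine 3 was left out, with log2 fold changes of -0.74, -0.58, -0.70 and -0.62, and the background of vehicle 3 came to 23.4% of its TET2 count.

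TET1, which carries a CXXC domain and is best known from embryonic stem cells, was close to the limit of detection. The vehicle libraries counted 23, 22 and 61 reads on it, and the guadecitabine libraries 10, 0 and 4. As levels these are 2.28, 2.42 and 4.91 reads per kb with vehicle and 0.844, 0 and 0.421 with guadecitabine, where 3 counts in guadecitabine 2 would be 0.636. All guadecitabine libraries lay below all vehicle libraries, and vehicle 3 stood at 2.09 times the mean of the other vehicle libraries. TET1 fell by 2.70 on the log2 scale (SE 0.778, adjusted p = 0.0235, edgeR's quasi-likelihood test), with a 95% interval from -4.45 to -0.94. It passed the filter on low counts through its vehicle libraries only, so that it had to be lower in guadecitabine to be tested at that level, and the background of vehicle 3 came to 68.1 counts, 112% of the TET1 count there. Without guadecitabine 2 or guadecitabine 3 the log2 fold change was -2.31 (adjusted p = 0.0542, edgeR) or -2.66 (adjusted p = 0.111, edgeR), and the call was lost.

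TET3, which also oxidises 5-methylcytosine and is abundant in the oocyte, held 16.4, 13.9 and 17.7 reads per kb with vehicle and 17.8, 20.7 and 17.8 with guadecitabine. The groups came apart only narrowly, since vehicle 3 almost reached guadecitabine 1 and 3. Its log2 fold change of 0.22 (SE 0.152, 95% interval -0.12 to 0.56) did not pass edgeR's quasi-likelihood test at an adjusted p of 0.288. Offsets for GC content and exon length moved it to 0.47 (adjusted p = 0.00968, edgeR), past the threshold, in a fit that called 19.4% of all genes higher and 27% lower. Background came to 30.9% of the TET3 count of vehicle 3, and 3.23% of the exon bases of TET3 are shared with a long noncoding RNA on the same strand.

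The ratio of TET2 to TET3 in reads per kb was 1.19, 1.09 and 1.32 with vehicle and 0.815, 0.512 and 0.527 with guadecitabine. TET2 was the more abundant of the pair in every vehicle library and TET3 in every guadecitabine library. With guadecitabine TET2 lay lower and TET3 higher without overlap, so the groups of this ratio too had to separate. Its two-sided exact permutation p of 0.1, the smallest possible, adds nothing to the levels of the genes. The exons differ in GC content, 41.2% for TET2 and 53.2% for TET3, and the ratio is not corrected for it. Of the summed TET reads per kb, TET2 made up 50.1% ± 1.60 with vehicle and 37.2% ± 5.68 with guadecitabine, and TET3 41.8% ± 2.92 and 61.4% ± 6.76. The sum itself was 38.6 ± 7.29 reads per kb with vehicle and 30.7 ± 2.79 with guadecitabine (SD, n = 3), a small pool beside the DNMT sum.

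TDG, the glycosylase that removes 5-formylcytosine and 5-carboxylcytosine as well as thymine from G:T mismatches, held 132, 133 and 165 reads per kb with vehicle and 203, 148 and 155 with guadecitabine. The groups overlapped, as vehicle 3 lay above 2 of the guadecitabine libraries. The log2 fold change was 0.24 (SE 0.151, 95% interval -0.10 to 0.58, adjusted p = 0.236, edgeR's quasi-likelihood test), and 0.06 with offsets for GC content and exon length. TDG shares much of its sequence with processed copies, one of them TDGP1 at chr12:25956127-25959193 in hg19, and 50.1% of its 50-base exon stretches occur once in the genome, so its counts are uncertain as those of UHRF1 are. A long noncoding RNA on the same strand shares 5.28% of its exon bases.

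MBD2, the methyl-CpG reader that links methylated DNA to NuRD, held 160, 151 and 242 reads per kb with vehicle and 254, 155 and 225 with guadecitabine. Both groups were widely spread and overlapped, with vehicle 3 high and guadecitabine 2 low. The log2 fold change was 0.20 (SE 0.219, 95% interval -0.29 to 0.70, adjusted p = 0.498, edgeR's quasi-likelihood test). Background came to 2.26% of the MBD2 count of vehicle 3. Leaving out vehicle 3 and guadecitabine 2 together, the pair of libraries that stand apart, gave a log2 fold change of 0.63 for MBD2 (adjusted p = 0.000427, edgeR) and of 0.44 for TDG (adjusted p = 0.0250, edgeR), both past the threshold with 2 libraries a group. That fit was chosen after seeing the data, it removes the highest vehicle library of both genes and the lowest guadecitabine library of both, which raises the difference by construction, and it called 27.2% of all genes higher, so it lends the calls no support.

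**Figure D4:**
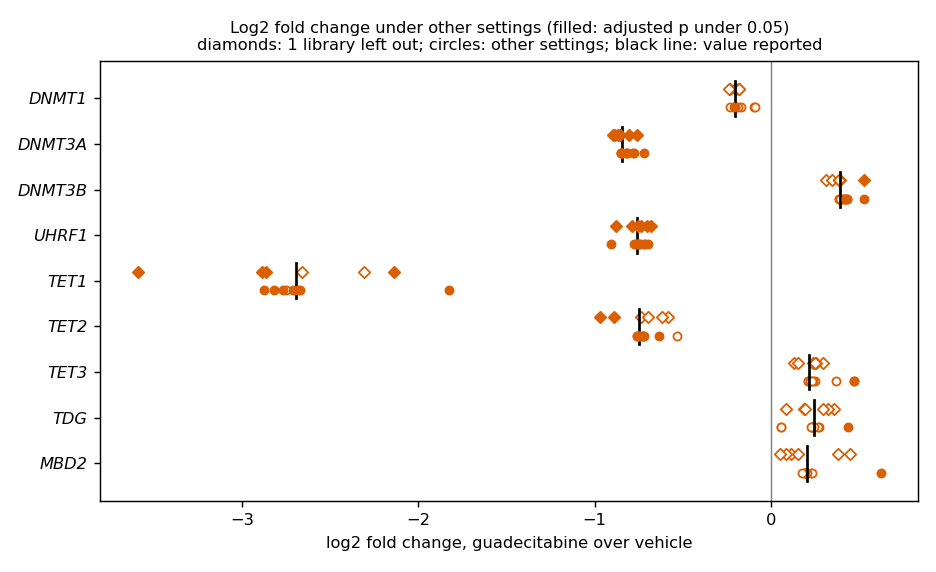
Log2 fold change of guadecitabine against vehicle for each of the 9 genes under each alternative fit, with diamonds for 1 library left out, circles for other settings, a black line at the reported value and filled symbols for adjusted p under 0.05. All symbols of UHRF1 and DNMT3A are filled, whereas each of the other 7 genes has filled and open symbols, and no gene has symbols on both sides of 0.

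DNMT3A and UHRF1 passed the threshold in all 16 alternative fits, with adjusted p of at most 0.0138 and 0.0189 in edgeR or DESeq2. TET2 did so in 10 of 16 fits, TET1 in 11 of the 14 that tested it, DNMT3B in 5 of 16, TET3 in 2 of 16 and DNMT1, TDG and MBD2 in 1 of 16 each. The 9 genes kept their direction in every fit that tested them. These fits reuse the same 6 libraries, so the tallies are not independent support, and the filter fixed the direction of TET1 in the main fit. The tallies include the fits chosen after seeing the data, from which the single calls of TDG and MBD2 came.

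The other genes of the pathway were taken from lists grouped by role, 57 genes in all, of which 56 were tested. Of these 56, 8 rose, 15 fell and 33 did not pass the test, where 19.3% of all genes rose and 18.4% fell. The median log2 fold change of the 56 was -0.17. The role lists were chosen with earlier results of these data known, so their shares are a description and not a test.

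Among 12 partners of maintenance methylation and enzymes of the methyl donor cycle, 3 fell and 1 rose. These are 25% and 8.33%, beside 18.4% and 19.3% of all genes tested. The DNA ligase of replication LIG1, a partner of UHRF1, fell by 1.15 on the log2 scale from 2070.3 ± 130.4 to 934 ± 86.5 normalised counts (SD, n = 3, adjusted p = 7.45e-05, edgeR). The replication clamp PCNA, which tethers DNMT1, fell by 0.62. HELLS, a chromatin remodeller needed for methylation of repeats, rose by 0.56 (SE 0.144, adjusted p = 0.0144, edgeR). The DNMT1 deubiquitinase USP7 (log2 fold change 0.18) and the UHRF1 paralog UHRF2 (0.06) did not pass the test.

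Of 7 partners of de novo methylation and related enzymes that were tested, 2 rose and 3 fell. These are 28.6% and 42.9%, beside 19.3% and 18.4% of all genes tested. KDM1B, an H3K4 demethylase that opens imprinted loci to methylation in oocytes, rose by 1.41 on the log2 scale (SE 0.150, adjusted p = 0.000119, edgeR), from 316 ± 33.2 to 840.0 ± 148 normalised counts. ZFP57, a zinc finger protein that protects imprints, was called higher at a log2 fold change of 3.33 (adjusted p = 0.0355, edgeR), but it had 0 counts in vehicle 1 and vehicle 2 and 10.0 normalised counts in vehicle 3, so that this fold depends on the prior count. The background of vehicle 3 would give 13.3 counts on ZFP57, which had 13 there, and the gene passed the filter through its guadecitabine libraries, so its place among the genes that rose carries the same limit as that of TET1. Its guadecitabine libraries held 53.4, 22.4 and 35.3 normalised counts. Its corepressor TRIM28 fell by 0.43, the H3K9 methyltransferase SETDB1 by 0.40 and the H3K36 methyltransferase NSD1 by 0.39 on the log2 scale. DNMT3L, the catalytically inactive cofactor of the de novo enzymes, was below the filter and had at most 0.951 normalised counts outside vehicle 3.

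Of 7 genes listed as relatives of MBD2 or as other methyl-CpG binding proteins, only ZBTB4 passed the test (14.3%, beside 37.7% of all genes). It fell by 0.59 on the log2 scale (adjusted p = 0.00478, edgeR). MBD1, MBD3 and MBD4 had log2 fold changes of 0.26, -0.36 and 0.19 that did not pass. Of 11 NuRD subunits, the deacetylase HDAC1 fell by 0.64, the helicase CHD3 by 0.38 and MTA1 by 0.38 on the log2 scale, GATAD2A, which binds MBD2, rose by 0.44, and 7 did not pass. The main helicase CHD4 was among those 7, at a log2 fold change of -0.15. Of the 11 subunits 27.3% fell and 9.09% rose, beside 18.4% and 19.3% of all genes tested.

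On the side of demethylation, 3 of 12 genes of base excision repair and its adaptors rose and 2 fell. These are 25% and 16.7%, near the 19.3% and 18.4% of all genes tested. POLB, the gap-filling polymerase downstream of TDG, rose by 1.06 on the log2 scale from 275 ± 19.9 to 573 ± 43.2 normalised counts (SD, n = 3), the glycosylase NEIL2 by 0.74 and the stress gene GADD45A by 0.47. The scaffold XRCC1 fell by 0.75 and GADD45B by 0.53. Among 7 partners of TET enzymes and enzymes of their cofactor, IDH1, which makes 2-oxoglutarate, fell by 1.75 on the log2 scale from 1249.7 ± 67.7 to 367 ± 86.5 normalised counts, without overlap between groups. D2HGDH, which clears 2-hydroxyglutarate, fell by 0.80, and CXXC5, a CXXC protein that can recruit TET2, fell by 0.54. Of those 7 genes 3 fell and 1 rose (42.9% and 14.3%, beside 18.4% and 19.3% of all genes tested). The O-GlcNAc transferase OGT, a partner of TET2 and TET3, had a log2 fold change of -0.01 and did not pass the test.

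**Figure D5:**
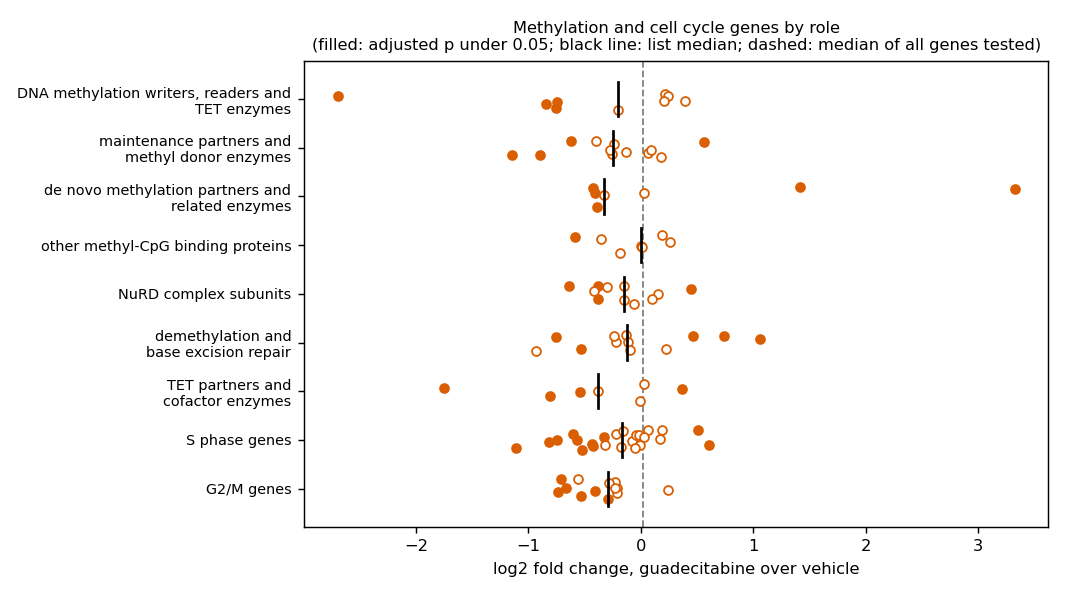
Log2 fold changes of guadecitabine against vehicle for the 9 genes and for the role lists and cell cycle lists, with 1 point per tested gene, filled where the adjusted p was under 0.05, a black line at the median of each list and a dashed line at the median of all genes tested (0.02). List medians run from -0.38 for the TET partners to 0.00 for the other methyl-CpG binding proteins, and every list holds points on both sides of 0.

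UHRF1, DNMT1 and several of their partners are expressed mostly in cycling cells, so cell cycle genes were read beside them. Of 24 genes of S phase, 9 fell (37.5%) and 2 rose (8.33%), beside 18.4% and 19.3% of all genes tested, with a median log2 fold change of -0.17. The helicase subunits MCM5 and MCM6 fell by 1.11 and 0.82 on the log2 scale, the largest falls of that list, and the origin licensing factor CDC6 and the ribonucleotide reductase subunit RRM2 rose by 0.61 and 0.51. Of 13 genes of G2/M, 6 fell (46.2%) and 0 rose, beside the same shares of all genes, with a median log2 fold change of -0.30, the largest falls being those of BIRC5 by 0.74 and CCNB2 by 0.71. Both lists were chosen with earlier results of these data known, so their shares are a description and not a test. UHRF1, at -0.76, lay beyond the largest fall of the G2/M list and within that of the S phase list, and DNMT1, at -0.21, near both medians. The part of cell cycle in the level of UHRF1 was not tested.

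The genes whose log2 levels were most like that of DNMT1 over the 6 libraries, among 10444 genes with a mean of at least 100 counts, were ACAA2, AP3D1 and C6orf120. Their Pearson r with DNMT1 was 0.996, 0.994 and 0.994, a description over libraries that share 2 groups.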

How the data were processed

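RNA of 6 libraries of MDA-MB-231 cells was analysed, 3 per group by the labels. The authors aligned reads to hg19 with STAR 2.3.1z and deposited raw counts of exon reads per RefSeq transcript from iRNA-seq, with the exon length counted. The authors also deposited regularised log2 values, a mean signal per gene, and their own DESeq2 comparison, namely log2 fold changes, a test statistic (score) and p-values, none of which was used. Treatment of reads that match several places, and of strand, is not given in the sources used here.

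The members and gene lists were chosen with earlier results of these data known. The test across all genes was run on these counts in edgeR 4.0.16 (R 4.3.3), after TMM normalisation, the filterByExpr filter (minimum count 10), the quasi-likelihood test without a replicate block and Benjamini-Hochberg adjustment over 13322 genes, at an adjusted p of 0.05. Fold changes were fitted to counts, and the fit was tested on simulated data. Normalised counts were scaled to 17888476 per library. Intervals use the residual degrees of freedom of edgeR. The floor of detection was 3 counts in a library, which covers counting error only. The libraries held 8792127 to 22277442 counts. All 9 members were named, with up to 2 called genes per list and direction, or all where 5 or fewer were called, and the 3 genes most like DNMT1. Some genes that this rule names are not reported here. Genes named besides those, all of them not called, were chosen after their values were seen. Uniqueness of 50-base stretches and shared exons came from GRCh37 with GENCODE 44, and promoters from RefSeq on GRCh38.p14, where all 9 members matched. Protein sequences were not used here. Alternatives were DESeq2 1.42.0, other scalings, filters and folds, offsets for GC content and length, a replicate block and leaving out libraries. Chosen after seeing the data were subtraction of the background of vehicle 3, and leaving out vehicle 3 with guadecitabine 2.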

Additional observations from a re-analysis of the deposited data

How the results depend on the processing

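Under the 2-fold limit 1633 genes and 1 of the 9 were called, and leaving out 1 library at a time gave 3335 to 5577 genes (3335 without guadecitabine 3), 2 to 4 of the 9 (2 without guadecitabine 2 or 3) and 15 to 25 of the 56 tested pathway genes (15 without vehicle 1). Of the G2/M genes 10 were called, all lower, with offsets for GC content and length, with or without the block, where 27% and 26.1% of all genes were called lower without and with it. DNMT1 was called by DESeq2 (log2 fold change -0.21). DNMT3B was called with these offsets (0.43), with the block and offsets (0.43), without vehicle 3 (range over single libraries left out 0.31 to 0.53), with the background of vehicle 3 subtracted (0.43) and without vehicle 3 and guadecitabine 2 (0.53). TET3 was called with the offsets alone and with the block (0.47 each), and TDG (0.44) and MBD2 (0.63) without vehicle 3 and guadecitabine 2. TET1 was not called without a filter (-2.75) and ranged from -3.59 to -2.14 with single libraries left out. It gave no value with at least 10 counts in every library or with the background subtracted, because it fell below the filter. TET2 was not called with library totals alone (-0.72) or without vehicle 3 and guadecitabine 2 (-0.53), and ranged from -0.97 to -0.58 with single libraries left out. Beyond the smaller number of libraries, the cause was not tested. Deviations of same-numbered libraries correlated at -0.0499, 0.0492 and -0.0366, and those of differently numbered libraries at -0.0613 to 0.0629, so no pairing by replicate number was seen. Such values cannot exclude pairing by experiment, because vehicle 3 and guadecitabine 2 stand apart and weigh on the deviations. With the replicate block 4654 genes and 4 of the 9 were called. Depth limits TET1 most, at 0 to 10 counts after guadecitabine.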
